A study of Bos taurus with 12 samples.

Results

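Solute carriers are the membrane proteins that move sugars, amino acids, organic acids, nucleosides, vitamins, metals and inorganic ions into and out of cells and organelles. Expression of 161 genes named as solute carriers was measured in rumen papillae, the finger-like folds through which a cow absorbs the products of microbial fermentation. The genes were those whose symbol in the array's annotation starts with SLC, a family number, the letter A and a member number, without SLC16A1, SLC9A3, SLC4A7 and SLC5A1. Each gene was represented by 1 probe set, the one with the largest SD over the 12 arrays, and the 161 genes were drawn from 9155 named genes and from 227 probe sets. The symbols covered 41 families, and 2 of the genes, SLC4A1AP and SLC7A6OS, are named after a carrier gene and are not carriers themselves.

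The tissue came from the ventral sac of the rumen of 4 Holstein dairy cows. Each cow was sampled on a high forage diet, which served as the control (week 0), and then under a grain challenge, once in its week 1 and once in its week 3. This gave 12 arrays, 4 per week, from the same 4 animals, which are the replicates. Age, lactation stage and the make-up of the diets were not given in the sources used here. Diet and calendar week coincided, and no animals kept on forage throughout were analysed here.

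The rumen epithelium is a layered squamous epithelium whose deeper cells are joined by gap junctions and carry the sodium pump. Short-chain fatty acids, ammonia, sodium and other solutes cross it, and carriers for monocarboxylates, bicarbonate, protons, sodium, glucose, peptides and urea are known for their part in that passage. Other carriers serve the epithelial cell itself. Amino acid exchangers feed protein synthesis, zinc and copper carriers set the metal content of the cytosol, nucleotide sugar carriers supply the Golgi apparatus, and the SLC25 family links the mitochondrial matrix with the cytosol.

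The values are log2 signals set relative to the median of each probe set, which lies at 0. They give differences between arrays and no absolute level, so no gene can be called more or less abundant than another, and the presence of epithelial markers could not be checked. Of the 161 genes 49 lay within 0.1 of the median of all probe sets on each of the 12 arrays, against 19.2% of the 9155 named genes. These 49 genes followed the array median and show little of their own. Several are known from other organs, such as the kidney carriers SLC22A6, SLC22A8, SLC34A1, SLC12A1 and SLC12A3 and the neuronal carriers SLC6A2, SLC17A6 and SLC18A2. The sodium, potassium and chloride cotransporter SLC12A2, the sugar carriers SLC2A3, SLC2A4 and SLC2A5 and the bicarbonate cotransporter SLC4A4 were also among them. The array medians themselves ranged from -0.051 to 0.054. The hybridization controls, RNA added to each array, averaged 0.49 and 0.48 at weeks 0 and 1 of cow 1 and 0.72 at week 0 of cow 2, and -0.32 to 0.055 on the other arrays.

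In the first week of grain the genes with the smallest p-values were carriers of nucleotide sugars, glutamine, copper, nucleosides, folate and mitochondrial oxodicarboxylates on the higher side and the amino acid carrier SLC6A14 on the lower side. SLC25A21 was at 1.21 ± 0.44 (SE, n = 4 cows), 2.32-fold higher, and SLC6A14 at -1.54 ± 0.60, 2.91-fold lower. Here and below ± is the SE of the limma fit without a term for the cow. It does not use the pairing of arrays by cow and is not the spread of the differences within cows. No solute carrier gene was called with limma at an adjusted p under 0.05, the background over all named genes being 0%. At an unadjusted p under 0.05, 6 of the 161 genes were higher and 1 was lower, which are 3.73% and 0.621%, beside 3.76% and 2.85% of the named genes. The higher share was near the background. Values were above forage in all 4 cows in 9 genes and below it in 7, with backgrounds of 7.48% and 5.29%. By sign alone 109 genes (67.7%) were higher, beside 63.3%. With the cow as a block 7 were higher and 3 lower at an unadjusted p under 0.05, with backgrounds of 5.25% and 4.99%, and none was called (background 0.0109%). The median difference was 0.026 in the solute carriers and 0.024 in all named genes. These counts depended on single arrays: without week 1 of cow 1, the array with the lowest median (-0.051), they were 64 higher and 7 lower, which are 39.8% and 4.35% beside 25.7% and 7.18% of the named genes, and 45 of the 64 lay within 0.1 of the array median. Without week 1 of cow 2 they were 3 and 0 (1.86% and 0%, background 3.46% and 1.86%). Without week 1 of cow 4 no gene was lower (background 2.25%). Without cow 1 the counts were 19 and 6 (11.8% and 3.73%, background 11.2% and 5.28%). Without cow 2 they were 3 and 0 (1.86% and 0%, background 2.98% and 1.86%), and without cow 3 or cow 4 no gene was lower (background 2.26% and 1.99%). With array weights, which gave week 1 of cow 1 a weight of 0.0618 against 0.421 to 3.63 for the others, 72 of the 161 genes (44.7%) and 30.6% of the named genes were called. Of the 72 genes 46 lay within 0.1 of the array median.

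At week 3 of grain, compared with forage, the carriers of CMP-sialic acid (SLC35A1), acetyl-CoA (SLC33A1), glutamate (SLC1A1) and the zinc carriers SLC30A1 and SLC30A6 had the smallest p-values on the higher side. The neutral amino acid exchanger SLC1A4 and the cationic amino acid carrier SLC7A1 had the smallest on the lower side, at -0.50 ± 0.15 and -0.51 ± 0.19 (SE, n = 4 cows). No gene was called with limma at an adjusted p under 0.05, beside a background of 0%, and at an unadjusted p under 0.05, 6 of 161 were higher and 2 lower (3.73% and 1.24%, background 3.13% and 1.89%). With the cow as a block 11 were higher and 4 lower, with backgrounds of 5.07% and 2.95%, and again none was called. The count of higher genes was 3 without cow 1 (1.86%, background 2.94%) and 2 without cow 4 (1.24%, background 2.83%). Only 1 gene was lower when the week 3 array of cow 1 or 2, the forage array of cow 4, or all of cow 1, 2 or 3 was left out (0.621%, background 1.22% to 1.97%). In 57 genes the value was higher at week 3 in all 4 cows, beside 28.1% of the named genes, but 27 of the 57 were among those within 0.1 of the array median. The array median was itself higher at week 3 in each cow, by 0.0023 to 0.031. In 8 genes the value was lower at week 3 in all 4 cows (background 6.34%), and by sign alone 121 genes (75.2%) were higher, beside 64.5%. After each array was centred on its median 21 genes (13%) were higher in all 4 cows, beside 11.9% of named genes. On the lower side the centred values gave 16 genes (9.94%), beside 11.4%. The median difference was 0.018 in the solute carriers and 0.017 in all named genes.

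Between week 1 and week 3 the largest difference was that of SLC6A14, at 2.38 ± 0.60 (SE, n = 4 cows), 5.19-fold higher at week 3. The zinc carriers SLC39A8 and SLC30A1 were at 1.22 ± 0.68 and 0.80 ± 0.27, and SLC33A1 at 0.26 ± 0.071. The glutamine carrier SLC1A5, the nucleoside carrier SLC29A1, the zinc importer SLC39A6 and the ornithine carrier SLC25A15 were lower at week 3. No gene was called with limma at an adjusted p under 0.05 (background 0%). At an unadjusted p under 0.05, 4 of 161 were higher and 4 lower (2.48% each, background 3.68% and 3.16%), and with the cow as a block 7 and 5 (background 6.39% and 4.21%). In all 4 cows 7 genes were higher and 6 lower (background 7.35% and 5.68%), and by sign alone 59 genes (36.6%) were higher, beside 40.8%. Without week 1 of cow 1 the counts were 11 higher and 18 lower (6.83% and 11.2%, background 7.89% and 8.40%), and 9 of the 18 lay within 0.1 of the array median. Leaving out week 1 of cow 3, or all of cow 3, gave 7 higher (4.35%, background 3.27% and 2.86%), and leaving out cow 1 gave 9 (5.59%, background 6.32%). The lower count was 2 without week 3 of cow 1 or week 3 of cow 3 (1.24%, background 2.94% and 2.21%), and 8 without cow 4 (4.97%, background 3.45%). A joint F test of the 3 weeks gave 8 genes at an unadjusted p under 0.05, which is 4.97% beside 6.90% of named genes. With the cow as a block it gave 15 genes, or 9.32% beside 11.6%. The lowest adjusted p of a solute carrier was 0.638, or 0.314 with the block. The 3 comparisons share arrays, so the values of a gene in them are not independent.

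**Figure D1:**
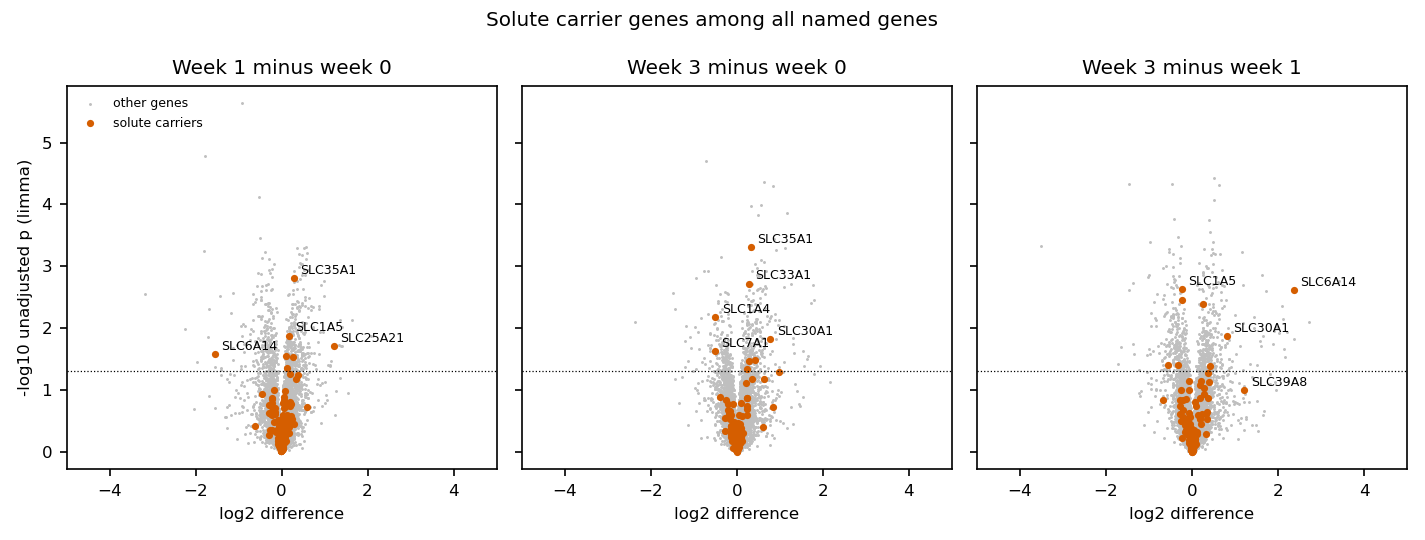
Each panel plots the log2 difference between 2 weeks against -log10 of the unadjusted limma p for the 161 solute carrier genes (orange) and the other named genes (grey), with a dotted line at the threshold. The orange points lie within the grey cloud, with 7, 8 and 8 of them above the line from left to right.

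Among the amino acid carriers, SLC6A14 had the largest SD of all 161 genes (1.31). It takes up neutral and cationic amino acids together with sodium and chloride. On forage it was at 0.38, -0.16, 0.35 and -0.17 in cows 1 to 4, at week 1 at 0.16, -1.89, -2.34 and -1.70 and at week 3 at 0.60, 2.23, 1.25 and -0.33. Cows 2, 3 and 4 were below every forage value at week 1 and cow 1 was not, so the weeks overlapped. At week 3 cows 1, 2 and 3 were above every forage value and cow 4 was not. The difference from forage at week 1 was -1.54 ± 0.60 (lower in 4 of 4 cows, limma, unadjusted p = 0.0264, adjusted p = 0.763) and at week 3 it was 0.83 ± 0.60 (higher in 3 of 4 cows). Week 3 against week 1 was higher in 4 of 4 cows, by 0.44 to 4.12 (limma, unadjusted p = 0.00241, adjusted p = 0.576).

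The SLC1 and SLC7 carriers had differences of both signs. SLC1A4 exchanges small neutral amino acids such as serine and alanine. Its forage values were 0.39, 0.14, 0.15 and 0.67 in cows 1 to 4, the week 1 values 0.46, 0.0069, -0.035 and -0.011 and the week 3 values -0.039, -0.25, -0.34 and -0.0069. Every week 3 value lay below every forage value, which was so for 1 of the 161 genes (0.621%, background 1.10%). Its difference at week 3 was -0.50 ± 0.15 (limma, unadjusted p = 0.00665, adjusted p = 0.901; adjusted p = 0.356 with the cow as a block), while its second probe set was at -0.036. SLC7A1, which carries arginine and lysine, was at -0.010, -0.0033, 0.26 and 0.84 on forage, -0.032, 0.0033, 0.042 and 0.13 at week 1 and -0.35, -0.59, -0.057 and 0.055 at week 3. It was lower in all 4 cows at week 3, with differences of -0.34, -0.59, -0.32 and -0.79 in cows 1 to 4, and the weeks overlapped, cow 4 being the highest at each week (limma, unadjusted p = 0.0233, adjusted p = 0.901). From week 1 to week 3 it was also lower in 4 of 4 cows, at -0.27 ± 0.19.

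SLC1A5, the glutamine exchanger, was at -0.10, 0.020, 0.029 and -0.048 on forage, 0.12, 0.24, 0.026 and 0.23 at week 1 and -0.075, -0.21, -0.020 and -0.033 at week 3. All week 3 values were below all week 1 values, as in 3 of the 161 genes (1.86%, background 1.69%), and the difference was -0.24 ± 0.060 (limma, unadjusted p = 0.00236, adjusted p = 0.576). SLC1A1, a glutamate carrier, stood above forage in all cows at week 3, at 0.32, 1.04, 0.0055 and 0.19 against -0.066, -0.0055, -0.012 and -0.088, and most of its mean difference of 0.43 ± 0.18 came from cow 2. From week 1 it was at 0.41 ± 0.18, higher in 4 of 4 cows. The large neutral amino acid carrier SLC7A5 and its heavy chain SLC3A2 were at -0.095 ± 0.31 and -0.029 ± 0.18 at week 1 and at 0.0069 ± 0.31 and 0.040 ± 0.18 at week 3, with cows on either side of 0. Between weeks 3 and 1 they were at 0.10 ± 0.31 and 0.069 ± 0.18. SLC38A7, a lysosomal glutamine carrier, was at 0.21 ± 0.11 at week 3, higher in 4 of 4 cows and without overlap with forage. SLC66A1, a lysosomal exporter of cationic amino acids, was at -0.22 ± 0.14 and -0.20 ± 0.14 at weeks 1 and 3, lower in 4 of 4 cows each time, with most of it in cow 2. SLC66A3 of the same family was at 0.36 ± 0.17 from forage and 0.38 ± 0.17 from week 1 at week 3, higher in 4 of 4 cows each time.

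SLC15A1, the proton-coupled peptide carrier PEPT1, was higher at week 3 in all 4 cows. On forage it was at -0.75, -0.021 and -0.13 in cows 1 to 3 and near 0 in cow 4, at week 1 near 0 in cow 1 and at 0.41, -0.57 and 0.43 in cows 2 to 4, and at week 3 at -0.12, 0.38, 1.17 and 0.19. The week 3 difference was 0.63 ± 0.31, 1.55-fold (limma, unadjusted p = 0.0656, adjusted p = 0.901), and the weeks overlapped. The serotonin carrier SLC6A4 was at -0.23 ± 0.19 at week 1, with -0.026, -0.21, -0.073 and -0.59 in cows 1 to 4, and at -0.077 without week 0 of cow 4. Of 13 listed genes of the amino acid response, through which cells sense scarce amino acids, 11 were measured and none was called. Their medians were -0.072 at week 1 and -0.10 at week 3, and 1 of them, the transcription factor ATF4, had an unadjusted p under 0.05, at -0.26 ± 0.11 and -0.25 ± 0.11.

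**Figure D2:**
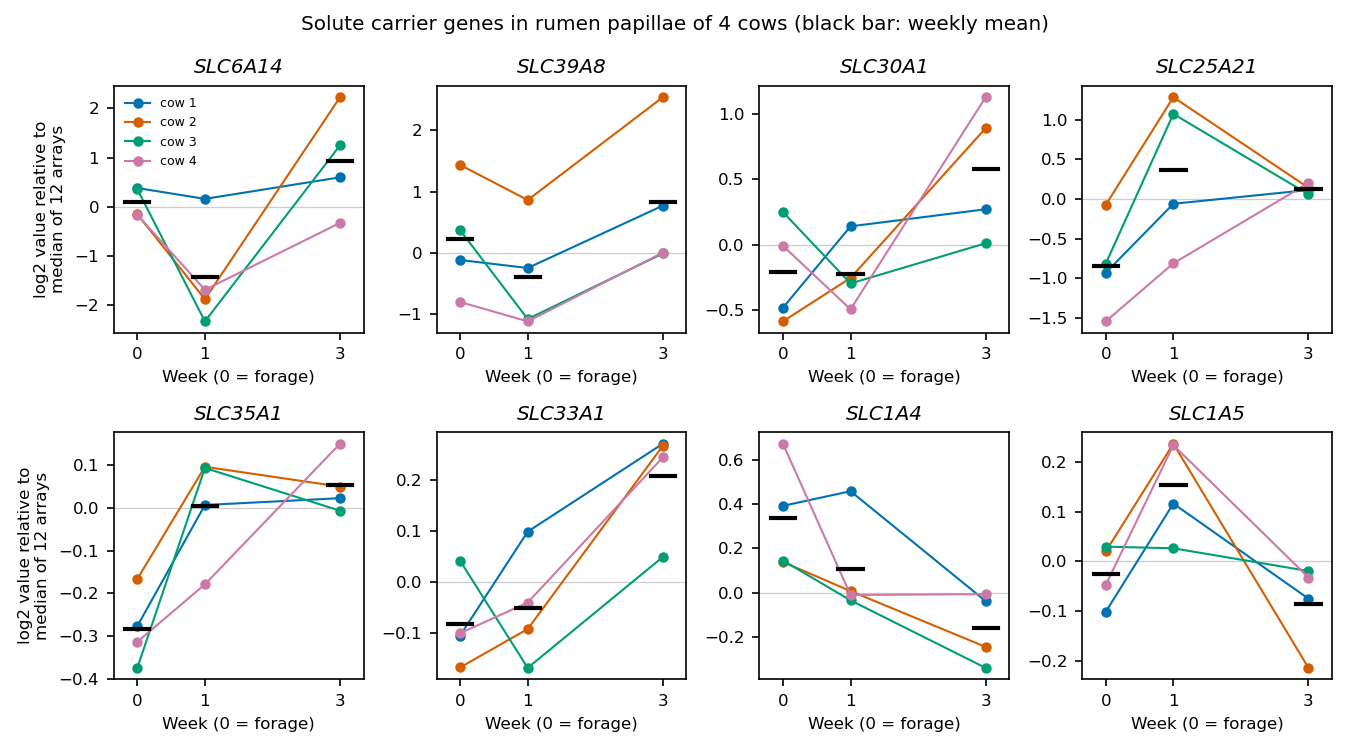
Log2 values relative to the median of the 12 arrays are plotted for 8 solute carrier genes at weeks 0, 1 and 3, with 1 line per cow and a black bar for the weekly mean, each panel on its own scale. SLC6A14 lay between -2.34 and -1.70 in 3 cows at week 1, and SLC35A1 was lower on forage than at week 3 in every cow.

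At week 3 against forage 18 of the 21 metal carriers were higher and 3 lower, beside 64.5% of named genes higher, with a median of 0.021 beside 0.017 for all genes. Of the 21 genes 5 lay within 0.1 of the array median. On the higher side 3 had an unadjusted p under 0.05 (background 3.13%), and 5 with the cow as a block (background 5.07%). SLC30A1 exports zinc from the cell. It was at -0.48, -0.59, 0.25 and -0.0098 on forage in cows 1 to 4, 0.14, -0.26, -0.30 and -0.50 at week 1 and 0.27, 0.89, 0.0098 and 1.13 at week 3. Cows 2 and 4 were high at week 3, cow 3 was not, and the weeks overlapped. The difference at week 3 was 0.78 ± 0.27 from forage, 1.72-fold (limma, unadjusted p = 0.0151, adjusted p = 0.901), and 0.80 ± 0.27 from week 1, where 4 of 4 cows were higher. Metallothioneins bind zinc and, like SLC30A1, are known targets of the zinc sensor MTF1. At week 3 MT2A was at -0.67 ± 0.15 from forage (limma, adjusted p = 0.694), MT1A at 0.020 ± 0.033, MT3 at 0.046 ± 0.049 and MTF1 at -0.027 ± 0.15. Of the 7 measured of 9 listed genes of metal handling none was called.

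SLC39A8, which brings zinc and manganese into the cell, lay far apart between cows. It was at -0.11, 1.43, 0.37 and -0.80 on forage, -0.24, 0.86, -1.07 and -1.11 at week 1 and 0.77, 2.54, -0.0066 and 0.0066 at week 3. Within each cow week 1 was the lowest, and the difference between weeks 3 and 1 was 1.02, 1.67, 1.07 and 1.12 in cows 1 to 4. Between weeks 3 and 1 the fit without a cow term gave a difference of 1.22 ± 0.68 (limma, unadjusted p = 0.101, adjusted p = 0.999) and the fit with it an unadjusted p of 0.00110 (adjusted p = 0.235). From forage to week 1 it was at -0.62 ± 0.68, lower in 4 of 4 cows. Myeloid markers (CD14, CD68, CSF1R, ITGAM and AIF1) had medians of -0.33 at week 1, 0.29 at week 3 and 0.67 between weeks 3 and 1, with 2, 4 and 4 of them higher, and their part in SLC39A8 and SLC6A14 was not tested. SLC39A6, another zinc importer, had the opposite sign. It was at -0.084, 0.023, -0.023 and 0.50 on forage, 0.21, 0.70, -0.21 and 0.39 at week 1 and -0.32, -0.038, -0.86 and 0.070 at week 3. It was lower at week 3 than at forage and at week 1 in all 4 cows, at -0.39 ± 0.24 and -0.56 ± 0.24, and its second probe set gave -0.32 and -0.34. SLC39A14, which carries zinc, manganese and iron, was at 0.33 ± 0.16 at week 1 and 0.23 ± 0.16 at week 3 from forage, with 3 of 4 cows higher each time, and at -0.10 ± 0.16 between weeks 3 and 1. Its forage value was -0.71 in cow 2, and without that array the differences from forage were 0.16 and 0.055. SLC39A7, which releases zinc from the endoplasmic reticulum, was at -0.22 ± 0.16 at week 1, with -0.068, -0.51, -0.21 and -0.11 in cows 1 to 4, and at -0.11 without week 1 of cow 2.

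The copper importer SLC31A1 was higher than on forage in all 4 cows at weeks 1 and 3. It was at -0.065, -0.058, -0.17 and -0.24 on forage, 0.36, 0.13, -0.036 and 0.036 at week 1 and 0.19, 0.046, -0.13 and 0.27 at week 3. Week 1 did not overlap with forage, as in 3 of 161 genes (1.86%, background 2.21%), and week 3 did. The differences were 0.25 ± 0.10 and 0.23 ± 0.10 (limma, adjusted p = 0.763 and 0.901). The related SLC31A2 was at 0.25 ± 0.15 at week 3, higher in 4 of 4 cows. SLC30A6, which loads zinc into the secretory pathway together with SLC30A5, was at 0.29 ± 0.12 at week 3 without overlap with forage. In SLC30A6 week 0 of cow 2 was low, at -0.46 beside -0.059 to -0.0074 in the other cows.

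**Figure D3:**
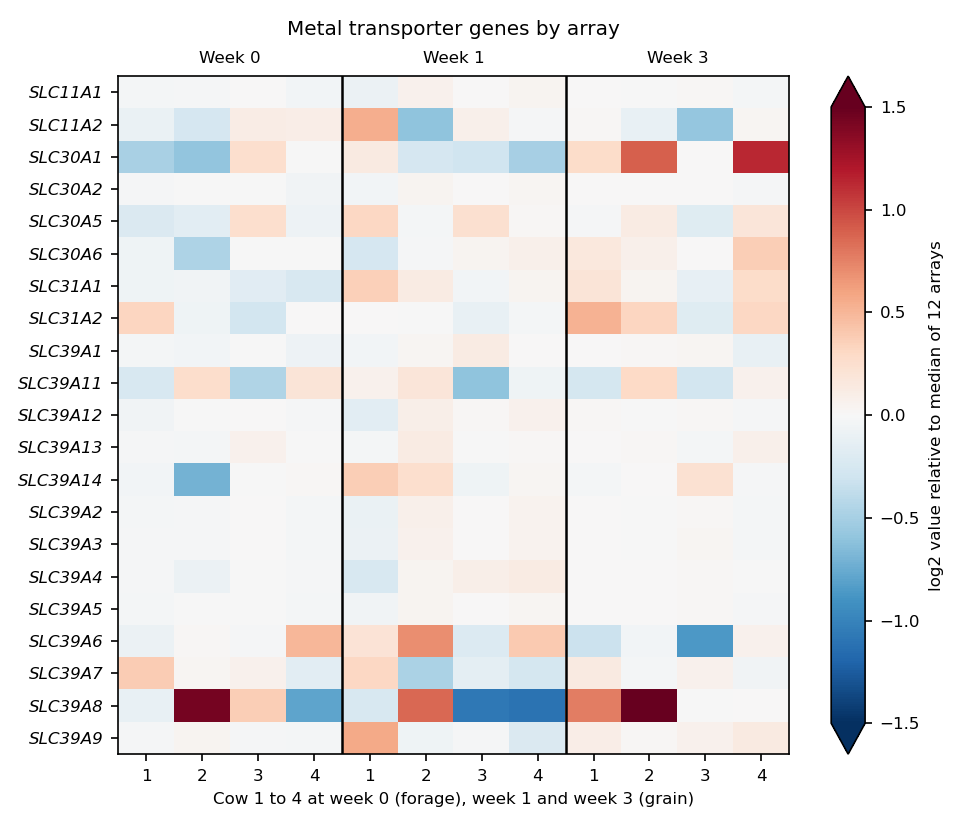
Rows are the 21 metal carrier genes and columns the 12 arrays, ordered by week and cow, with colour giving the log2 value relative to the gene's median over the arrays, cut at -1.5 and 1.5, which leaves 1 value beyond, SLC39A8 at 2.54 in cow 2 at week 3. SLC39A8 is red (higher) in cow 2 at all 3 weeks, and SLC30A1 is darkest in cows 2 and 4 at week 3.

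At week 3 against forage SLC35A1 and SLC33A1 had the smallest p-values of the set. SLC35A1 moves CMP-sialic acid into the Golgi. It was at -0.28, -0.17, -0.37 and -0.31 on forage in cows 1 to 4, 0.0067, 0.096, 0.093 and -0.18 at week 1 and 0.023, 0.050, -0.0067 and 0.15 at week 3. All week 3 values lay above all forage values, as in 6 of 161 genes (3.73%, background 2.95%), and at week 1 cow 4 came within the forage range. The differences were 0.29 ± 0.068, 1.22-fold (limma, unadjusted p = 0.00156, adjusted p = 0.686), and 0.34 ± 0.068, 1.26-fold (unadjusted p = 4.91e-04, adjusted p = 0.597), higher in 4 of 4 cows each time. SLC35A3, which carries UDP-N-acetylglucosamine, was at 0.37 ± 0.17 at week 1, higher in 4 of 4 cows, and at 0.099 ± 0.17 at week 3. SLC35A4 of the same family was at 0.13 ± 0.11 between weeks 3 and 1. All 5 members of this family were higher at week 3 than on forage, beside 64.5% of named genes, with a median of 0.099. Of the 5, 1 had an unadjusted p under 0.05 (background 3.13%).

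SLC33A1 brings acetyl-CoA into the endoplasmic reticulum. It was at -0.11, -0.17, 0.041 and -0.10 on forage, 0.099, -0.093, -0.17 and -0.041 at week 1 and 0.27, 0.27, 0.049 and 0.24 at week 3. Week 3 stood above forage without overlap, narrowly so in cow 3, and the difference was 0.29 ± 0.071 (higher in 4 of 4 cows, limma, unadjusted p = 0.00191, adjusted p = 0.809). Week 1 was at 0.032 ± 0.071 from forage.

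The 27 mitochondrial carriers were spread on either side of 0, with 16 higher and 11 lower at week 1 and again at week 3, and medians of 0.040 and 0.012. Of named genes 63.3% and 64.5% were higher at these weeks. SLC25A21, which exchanges 2-oxoadipate and 2-oxoglutarate, stood out by size. It was at -0.93, -0.074, -0.81 and -1.54 on forage, -0.060, 1.29, 1.07 and -0.81 at week 1 and 0.11, 0.14, 0.060 and 0.20 at week 3. At week 3 the 4 cows lay within a narrow band above all forage values, and at week 1 cows 2 and 3 were high and cow 4 was not. The differences were 1.21 ± 0.44 (0.87, 1.36, 1.89 and 0.73 in cows 1 to 4, limma, unadjusted p = 0.0197, adjusted p = 0.763) and 0.97 ± 0.44 (unadjusted p = 0.0511, adjusted p = 0.901). The ADP/ATP carriers SLC25A4 and SLC25A5 were lower at week 3 in 4 of 4 cows, at -0.15 ± 0.14 and -0.25 ± 0.16. The second probe set of SLC25A5 was at -0.061, and over the 12 arrays it ran against the one used (r = -0.64). Between weeks 3 and 1 SLC25A5 was at -0.21 ± 0.16. The third ADP/ATP carrier, SLC25A6, was at -0.030 ± 0.22 at week 3 from forage. Its other probe sets were at -0.12 and -0.024 and hardly followed the one used (r = -0.18 and 0.069).

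SLC25A15, the ornithine carrier of the urea cycle, was lower at week 3 than at week 1 without overlap, at -0.33 ± 0.14 (limma, unadjusted p = 0.0395, adjusted p = 0.996). SLC25A11, the oxoglutarate and malate carrier, was at -0.096 ± 0.13 at week 3, and its second probe set had the opposite sign. SLC25A29 had a difference of 0.097 ± 0.22 at week 1, in the same direction in 4 of 4 cows. SLC25A51, which carries NAD, was at 0.040 ± 0.027 and lay within 0.1 of the array median on every array.

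All 4 nucleoside carriers were above forage at week 1 by sign, 3 of 4 were below it at week 3, and all 4 were lower at week 3 than at week 1, with medians of 0.11, -0.039 and -0.15. Of named genes 63.3%, 64.5% and 40.8% were higher in these 3 comparisons, and 1 of the 4 carriers lay within 0.1 of the array median. SLC29A1, an equilibrative nucleoside carrier, was at 0.0086, -0.087, -0.016 and 0.048 on forage, 0.18, 0.22, 0.012 and 0.082 at week 1 and -0.0086, -0.23, -0.10 and -0.050 at week 3. It was higher than forage in 4 of 4 cows at week 1 and lower in 4 of 4 at week 3, at 0.13 ± 0.059 and -0.087 ± 0.059. Week 3 lay below week 1 without overlap, at -0.22 ± 0.059 (limma, unadjusted p = 0.00353, adjusted p = 0.656). SLC29A2 and the folate carrier SLC19A1 were higher than forage at week 1 without overlap, at 0.080 ± 0.045 and 0.097 ± 0.038, and the smallest cow difference was near 0 in each. In SLC29A2 cow 1 was at 0.21 at week 1, beside 0.00055 to 0.035 in the other cows. Without cow 1 the difference of SLC29A2 was 0.026. The concentrative carrier SLC28A3 was at 0.60 ± 0.43 at week 1, where its 2 other probe sets had the opposite sign, at -0.27 and -0.095. Between weeks 3 and 1 SLC28A3 was at -0.67, and these 2 probe sets again had the opposite sign, at 0.083 and 0.027.

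Of the 8 measured rumen transport genes, SLC2A1, SLC16A3, SLC4A2 and SLC27A4 had differences within their standard error doubled, in the fit without a term for the cow. The glucose carrier SLC2A1 was at 0.040, -0.25, -0.28 and -0.13 on forage, 0.43, 0.069, -0.32 and 0.054 at week 1 and 0.17, -0.088, 0.26 and -0.040 at week 3. Its differences were 0.21 ± 0.15 and 0.23 ± 0.15, with 3 of 4 and 4 of 4 cows higher (limma, adjusted p = 0.763 and 0.901). The lactate exporter SLC16A3 was at 0.024 ± 0.055 and 0.047 ± 0.055, the chloride and bicarbonate exchanger SLC4A2 at -0.038 ± 0.12 and -0.016 ± 0.12, and the fatty acid carrier SLC27A4 at 0.045 ± 0.12 and 0.090 ± 0.12. Between weeks 3 and 1 they were at 0.023, 0.022 and 0.045, and SLC2A1 at 0.020. SLC16A3 was at -0.0025 at week 1 after quantile normalization and at -0.0017 after centring each array. Of the 8 facilitative sugar carriers 7 were higher at week 1 and 8 at week 3, beside 63.3% and 64.5% of named genes, with medians of 0.038 and 0.018, close to the shift of all genes. Of the 7 bicarbonate and chloride carriers 4 lay within 0.1 of the array median, and their differences ran from -0.21 to 0.12 in the 2 comparisons with forage. SLC17A9, which loads nucleotides into vesicles, was at -0.28 ± 0.20 at week 1, lower in 4 of 4 cows.

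None of the 4 rumen transporters left out of the set was called. At an unadjusted p under 0.05 SLC5A1 was lower at week 1 (background 2.85%). At week 3 SLC9A3 was higher and SLC4A7 lower at that threshold (background 3.13% and 1.89%). The monocarboxylate carrier SLC16A1 was at 0.14 ± 0.11 and 0.037 ± 0.11 at weeks 1 and 3. SLC9A3, which exchanges sodium for protons, was at 0.16 ± 0.14 and 0.36 ± 0.14. The bicarbonate cotransporter SLC4A7 was at -0.047 ± 0.18 and -0.47 ± 0.18, and the sodium and glucose cotransporter SLC5A1 at -0.74 ± 0.26 and -0.27 ± 0.26. Of 14 listed partner genes of carriers 8 were measured, and 1 of them, the carbonic anhydrase CA4, had an unadjusted p under 0.05, at -0.33 ± 0.13 at week 3. BSG, the chaperone of monocarboxylate carriers, was at 0.12 ± 0.074 and 0.085 ± 0.074. Of the genes of the oxidative stress response 9 of 10 were measured, with medians of -0.038 and 0.018, and of the hypoxia response 7 of 9, with medians of -0.054 and -0.033. At an unadjusted p under 0.05 3 genes of the oxidative stress list (HMOX1, GCLC and NFE2L2) were higher and none lower at week 1 (background 3.76% and 2.85%). At week 3 2 were higher (HMOX1 and TXNRD1) and 1 lower (NQO1), with backgrounds of 3.13% and 1.89%. HMOX1 was at 1.34 ± 0.48 and 1.80 ± 0.48 at weeks 1 and 3 (limma, adjusted p = 0.763 and 0.901). Of the hypoxia list 2 were higher and 1 lower at week 1, and 1 was lower at week 3, beside the same backgrounds. None of them was called.

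The 6 sodium-coupled sugar and anion carriers had medians of 0.021 and 0.016 at weeks 1 and 3, the 11 phosphate and vesicular carriers 0.026 and 0.019, and the 10 organic ion carriers 0.022 and 0.013. Genes within 0.1 of the array median made up 4, 6 and 4 of these. Single differences from forage ran from -0.28 to 0.23 in the phosphate and vesicular carriers and from -0.28 to 0.11 in the organic ion carriers. The 9 vitamin and cofactor carriers were at 0.019 and 0.013, the 5 fatty acid carriers at 0.031 and 0.072, with single differences from -0.30 to 0.11, and the 4 cation and chloride cotransporters at 0.029 and 0.020. The 3 dicarboxylate carriers were at 0.050 and 0.024. The 2 genes that are not carriers, SLC4A1AP and SLC7A6OS, were at -0.18 and -0.17 at week 1, and SLC4A1AP was lower in 4 of 4 cows. The median absolute difference of the 161 genes was 0.045, 0.035 and 0.030 in the 3 comparisons, beside 0.074, 0.062 and 0.062 for all named genes.

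**Figure D4:**
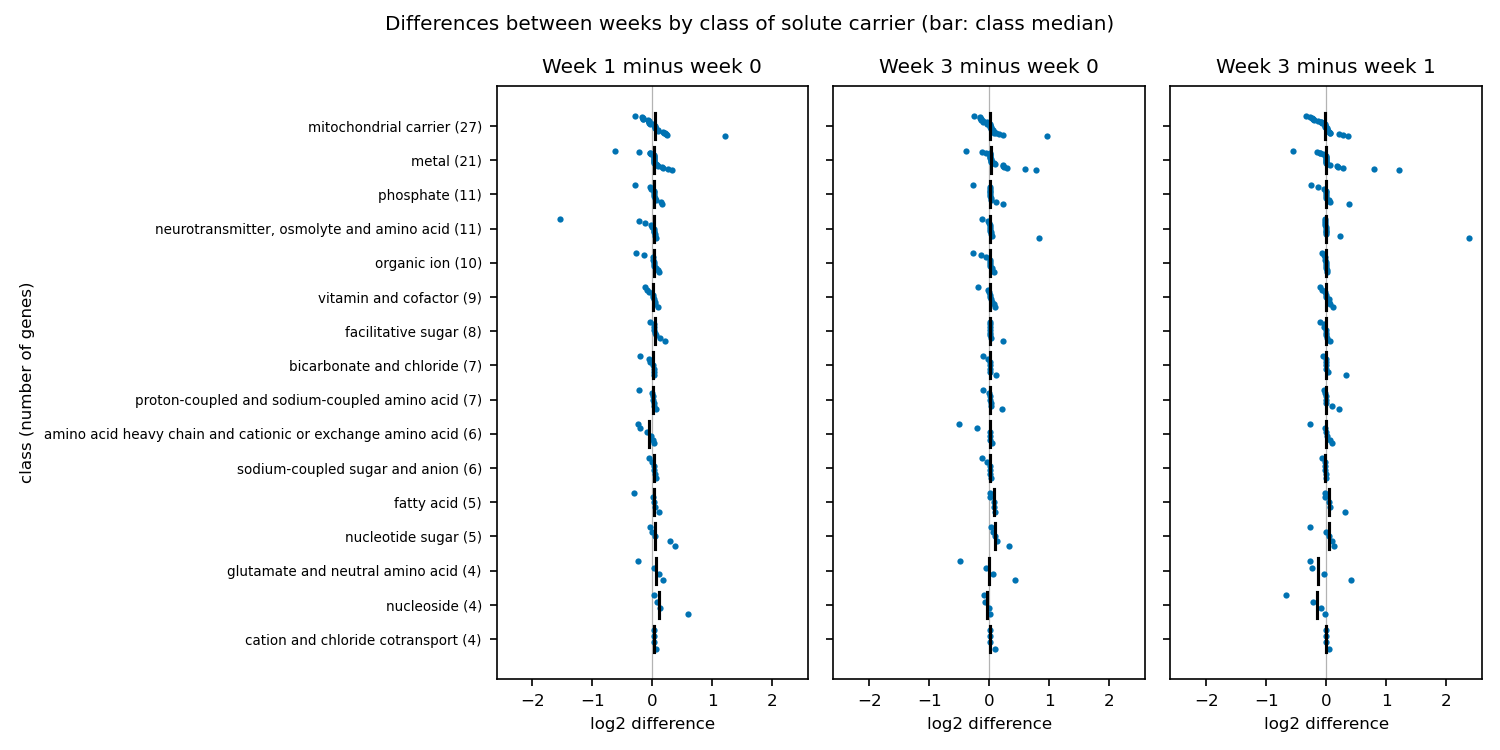
Each point is the log2 difference of 1 solute carrier gene, grouped by class with the number of genes in brackets, for the 3 comparisons of weeks, and black bars are class medians. Classes of fewer than 4 genes are not drawn. The medians lie near 0 in every panel, and the point farthest out is SLC6A14 in the first and last panels and SLC25A21 for week 3 against forage.

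In 133 of the 161 genes (82.6%) a larger part of the variation lay between cows than between weeks, beside 75.4% of named genes, and the median parts were 27.2% and 12.0%. With no difference of either kind, 4 cows would take up 27.3% on average and 3 weeks 18.2%, by their degrees of freedom. SLC25A29, a carrier of basic amino acids, was the extreme, with 96.2% between cows. Cow 3 stood at 0.49, 0.71 and 0.68 at weeks 0, 1 and 3, and the other cows between -0.078 and 0.045. SLC27A2, a fatty acid carrier and acyl-CoA synthetase, was at 1.75, 0.30 and 1.73 in cow 4 and between -0.10 and 0.30 in the others. SLC5A9, a sodium-coupled sugar carrier, and SLC39A11, a zinc carrier, had 86.3% and 83.0% between cows. SLC5A9 was at -0.35, -0.0067, 0.0070 and -0.056 on forage in cows 1 to 4, -0.74, 0.24, -0.0093 and 0.068 at week 1 and -0.68, 0.0067, 0.019 and 0.13 at week 3. The creatine carrier SLC6A8 and the lysosomal sialic acid exporter SLC17A5 followed with 76.3% and 71.5%. SLC6A8 was at -0.33, 0.16, 0.23 and 0.084 on forage, -0.30, -0.19, 0.012 and 0.17 at week 1 and -0.38, -0.012, -0.050 and 0.098 at week 3. The carnitine carrier SLC22A5 and SLC66A2 were also among the 10 genes with the largest SD, at 0.50 and 0.43. The largest shares between weeks were those of SLC35A1 with 75.3%, SLC33A1 with 68.0% and SLC1A5 with 65.0%.

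**Figure D5:**
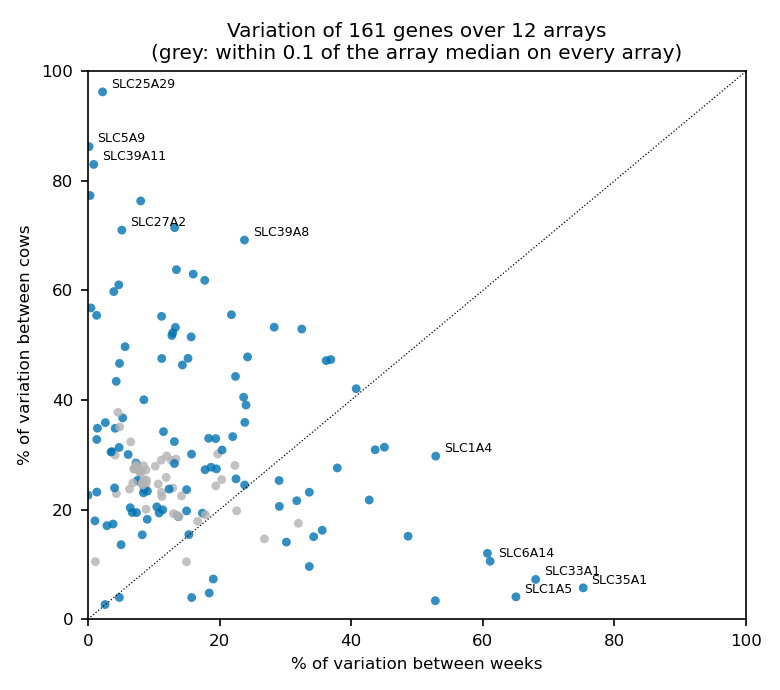
For each of the 161 genes the share of its variation over the 12 arrays that lay between cows (vertical, percent) is plotted against the share between weeks (horizontal, percent), with a dotted line of equal shares. Most points lie above the line, SLC25A29 at 96.2% between cows, and SLC35A1 lies farthest to the right at 75.3% between weeks.

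Markers of the cell types of the rumen wall also had differences between weeks. In bulk tissue fewer cells of a type and less RNA per cell cannot be told apart. All 5 measured of 7 listed markers of the basal epithelium were lower at weeks 1 and 3 than on forage (medians -0.32 and -0.36). Their mean lay between 0.23 and 0.41 on forage, between -0.27 and 0.19 at week 1 and between -0.39 and 0.0054 at week 3. Of 6 measured markers of differentiating epithelium, of 12 listed, 4 were lower at each of these weeks (medians -0.53 and -0.30), and their mean ranged from 0.083 to 0.60 on forage, from -0.53 to 0.12 at week 1 and from -0.38 to -0.12 at week 3. Of the 8 fibroblast markers 4 were higher at week 1 and 7 at week 3 (medians 0.12 and 0.43), with a mean of -0.43 to 0.086 on forage, -0.41 to 0.23 at week 1 and 0.084 to 0.38 at week 3. Of 5 measured markers of monocytes, macrophages and dendritic cells, of 7 listed, 2 were higher at week 1 and 4 at week 3. AIF1 and ITGAM were higher at week 1, at 0.27 and 0.065, and CD68 was lower at week 3, at -0.21. The mean of the 5 ranged from -0.69 to 0.55 on forage, from -0.57 to 0.19 at week 1 and from -0.21 to 0.72 at week 3. The medians of smooth muscle, endothelial, T and B cell, neutrophil and erythrocyte markers were -0.090, -0.050, 0.030, -0.10 and 0.036 at week 1 and -0.047, -0.036, 0.026, -0.038 and 0.026 at week 3. No marker was called, and the part of any of these in the differences of the solute carriers was not tested.

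For the 3 solute carriers with the smallest F test p, the genes outside the set with the most similar profile over the 12 arrays were found by Pearson correlation. The arrays share cows and labelling, so these are descriptions. SLC35A1 was closest to IGFBP5 (r = 0.95), TRMT10C (0.91) and GDPD2 (0.90). IGFBP5, which binds insulin-like growth factors, was at 1.00 and 1.06 at weeks 1 and 3, where SLC35A1 was at 0.29 and 0.34. SLC33A1 was closest to AIF1L, DNAJB9 and RPS6KA3 (0.92, 0.92 and 0.89), and DNAJB9, a chaperone partner of the endoplasmic reticulum, was at -0.11 and 0.34. SLC1A5 was closest to PTPRU, PADI1 and NOLC1 (0.90, 0.86 and 0.84).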

How the data were processed

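RNA of rumen papillae from 4 cows at 3 weeks was hybridised to Affymetrix arrays. The authors' deposited values, made with GCRMA per the submitters' processing notes (version not given in the sources used here), are log2 values centred on each probe set's median over the 12 arrays. The log base was not stated and was taken as 2, because a range of 11.2 within a probe set would exceed a 16-bit scanner as a natural log. The number of arrays limits the precision.

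All 24016 probe sets other than 112 AFFX controls were fitted with limma 3.58.1 in R 4.3.3 (lmFit and eBayes, two-sided, no trend), with a mean per week over 12 arrays and no term for the cow. P-values were adjusted with Benjamini-Hochberg over all probe sets, and a gene was called at an adjusted p under 0.05. Of these probe sets 13292 named 1 gene, 86 several and 10638 none in the array annotation. Of the 161 members 45 had several probe sets, and all 161 had a gene ID in the ARS-UCD2.0 gene table with the same symbol. No genome build goes with the values, so no coordinates are given.

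The same animals were sampled at each week, and their deviations from the weekly means had correlations of 0.303 to 0.690 for arrays of the same cow and of -0.435 to 0.0662 for arrays of different cows, which is why a second fit took cow as a blocking factor. The members, classes, marker lists and alternatives were chosen with earlier results of these data known. Genes named in a comparison were up to 10 in each direction with the smallest p among those of 1 sign in all 4 cows, 8 measured of 15 listed rumen transport genes, and the 10 largest SDs over all arrays; others were named after their values were seen. The 49 genes near the array median were likewise grouped after the values were seen. The steps were tested on simulated data. Alternatives were the cow block, leaving out arrays or cows, quantile normalization, centring, array weights, probe set means, a filter on SD, robust empirical Bayes and leaving out 3 arrays with high hybridization controls.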

Additional observations from a re-analysis of the deposited data

Results flagged for a closer look

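In 132 weekly groups of 4 cows, 44 named genes at 3 weeks, 17 had a highest or lowest cow that stood apart by Dixon's criterion (its gap to the nearest cow over the group's range). The criterion flags about 1 group in 20 for normally distributed values of genes not chosen by their data. The genes here were chosen in part by their values, and the share over all named genes is not given. The count of 17 can therefore not be read as an excess. Several are cows that stood apart at more than 1 week. SLC25A29 in cow 3 was at 0.49, 0.71 and 0.68 at weeks 0, 1 and 3. SLC27A2 in cow 4 was at 1.75 and 1.73 at weeks 0 and 3, and SLC66A2 in cow 4 at 0.71 and 0.26.

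In cow 2, SLC39A14 and SLC30A6 were low on forage, at -0.71 (others -0.041 to 0.018) and -0.46, and SLC66A1 was low at week 1, at -0.56. SLC17A9 and SLC4A1AP were high in cow 2 at week 3, at 0.76 (others -0.033 to 0.051) and 0.19. In cow 1, SLC29A2 and SLC1A4 were high at week 1, at 0.21 and 0.46. SLC25A15 in cow 4 on forage was at 0.42. At week 3 SLC39A14 was high and SLC33A1 low in cow 3, at 0.23 and 0.049 (others 0.24 to 0.27).

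SLC29A1 was higher than forage in 4 of 4 cows at week 1 and lower in 4 of 4 at week 3. The difference between these weeks was -0.22 (limma, adjusted p = 0.656), so it did not pass the test.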

How the results depend on the processing

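No solute carrier gene was called in any of the 24 alternatives except with array weights, which called 72 at week 1 against week 0 (44.7%, beside 30.6% of named genes). The counts at an unadjusted p under 0.05 moved with the setting. At week 1 against week 0 (6 higher, 1 lower) they were 7 and 3 with the cow as a block (4.35% and 1.86%, beside 5.25% and 4.99% of named genes). After quantile normalization they were 2 and 3 (1.24% and 1.86%, beside 2.12% and 3.51%), and after centring each array 3 were higher (1.86% beside 2.45%). With array weights they were 69 and 6 (42.9% and 3.73%, beside 29.6% and 9.12%). Without the 40% of probe sets of lowest SD, which left 94 of the 161 genes, 3 were higher (3.19% beside 3.74%). When the 3 arrays with high hybridization controls were left out they were 16 and 5 (9.94% and 3.11%, beside 9.77% and 6.4%). At week 3 against week 0 (6 and 2) they were 11 and 4 with the block (6.83% and 2.48%, beside 5.07% and 2.95%). After quantile normalization 4 were lower (2.48% beside 4.03%), and with array weights the counts were 16 and 5 (9.94% and 3.11%, beside 10.4% and 4.33%). The median difference there was -0.0016 after quantile normalization and 0.0013 after centring. At week 3 against week 1 (4 and 4) the higher count was 7 with the block (4.35% beside 6.39%) and 7 after quantile normalization (4.35% beside 4.14%). With array weights the counts were 11 and 50 (6.83% and 31.1%, beside 10.8% and 18.1%), and 9 were higher without the 3 arrays (5.59% beside 8.55%). The block changed no call.

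Leaving out 1 array or 1 cow gave 3 to 64 higher and 0 to 7 lower genes at week 1 (64 is 39.8%, beside 25.7% of named genes). At week 3 the counts were 2 to 9 and 1 to 3 (9 is 5.59%, beside 3.21%). Between weeks 3 and 1 they were 3 to 11 and 2 to 18 (11 and 18 are 6.83% and 11.2%, beside 7.89% and 8.4%). There were 0 calls in each. The medians ranged from 0.0085 to 0.049, from 0.012 to 0.025 and from -0.035 to 0.011.

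Of 70 differences of named genes 53 kept their sign in each alternative that gave a value. Leaving out 1 array or cow turned the sign of 16, left 38 with the same sign but smaller by over 1.5 times, and 16 neither. At week 1 SLC16A3 was at -0.0025 after quantile normalization and -0.0017 after centring, SLC27A4 at -0.069 without the 3 arrays and SLC3A2 at 0.20 with array weights. At week 3 against week 0, without the 3 arrays, SLC4A2, SLC27A4, SLC3A2 and SLC7A5 were at 0.054, -0.065, -0.16 and -0.26. After quantile normalization SLC3A2 and SLC7A5 were at -0.0077 and -0.056, and after centring SLC7A5 was at -0.0093. Between weeks 3 and 1, with array weights, SLC16A3, SLC27A4 and SLC3A2 were at -0.044, -0.025 and -0.12, and SLC16A3 was at -0.033 without the 3 arrays. Leaving out an array or a cow gave the following ranges where a sign turned. At week 1 they were -0.012 to 0.081 for SLC16A3, -0.081 to 0.23 for SLC25A29, -0.092 to 0.13 for SLC27A4, -0.23 to 0.16 for SLC30A1, -0.21 to 0.19 for SLC3A2, -0.15 to 0.13 for SLC4A2 and -0.36 to 0.20 for SLC7A5. At week 3 they were -0.046 to 0.18 for SLC27A4, -0.10 to 0.16 for SLC3A2, -0.056 to 0.043 for SLC4A2 and -0.19 to 0.30 for SLC7A5. Between weeks 3 and 1 they were -0.034 to 0.073 for SLC16A3, -0.17 to 0.14 for SLC2A1, -0.11 to 0.20 for SLC3A2, -0.095 to 0.13 for SLC4A2 and -0.075 to 0.34 for SLC7A5. The causes were not tested.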
